A study of Mus musculus with 8 samples.

Results

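The 29 genes described here encode the mitochondrial oxidation of fatty acids and the making of ketone bodies, with PPAR-alpha and 2 enzymes that govern fuel choice. They were taken by symbol from a fixed list matched to GENCODE M21, which was chosen with earlier results of these data known. All 29 were found among the 55335 Ensembl genes of the deposited count table. All 29 also passed the filter on low counts, which kept 15234 genes. The counts come from poly(A)-selected liver RNA of 8 female mice, every one of them on the chronic-plus-binge alcohol diet of the NIAAA, which joins continued ethanol feeding to a final binge dose. Ripk1-hepKO (the knockouts, mice 28, 34, 37 and 39) lack Ripk1 in hepatocytes, and Ripk1-Con (the controls) are mice 29, 32, 40 and 41, each an independent animal. Values of single mice are given in these orders throughout. The Cre driver, the alleles that the controls carry, the strain and the age are not given in the sources used here. Genotype is the only labelled difference, so the values set 2 genotypes side by side under ethanol and say nothing of ethanol itself.

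In the liver, long-chain fatty acids are joined to coenzyme A, carried across the inner mitochondrial membrane as carnitine esters, and shortened in repeated turns of dehydrogenation, hydration, a second dehydrogenation and thiolysis. The acyl-CoA dehydrogenases pass their electrons through the electron transfer flavoprotein to ubiquinone, and much of the acetyl-CoA made in hepatocytes during fasting leaves as acetoacetate and 3-hydroxybutyrate. PPAR-alpha, a nuclear receptor that senses fatty acids and binds DNA with RXR, is known to drive transcription of many genes of the pathway, and alcohol is known to disturb this programme and to promote steatosis.

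The genes stood lower in Ripk1-hepKO almost throughout, and none passed the test. Of the 29 genes, 28 had a log2 fold change (Ripk1-hepKO over Ripk1-Con) below 0, against 48.2% of all genes tested, and Pdk4 was the exception. The median was -0.32, against 0.01 over all genes tested. By edgeR's quasi-likelihood test with Benjamini-Hochberg adjustment over 15234 genes, 0 of the 29 had an adjusted p under 0.05, as had 0% of all genes tested. At an unadjusted p under 0.05, 17 of the 29 were lower and 0 higher, where 2.82% of all genes tested were lower and 3.86% higher. Each of those 17 shared the lowest adjusted p of the whole table, 0.742, and the other 12 reached from 0.762 to 0.992. The 4 Ripk1-hepKO mice all lay below the 4 controls in 11 of the 29 genes, against 2.09% of all genes tested. The reverse held for 0 of them, against 2.01%. The DESeq2 Wald test called 2, Crat and Hadhb, both lower, where it called 0.145% of all genes tested as lower.

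**Figure D1:**
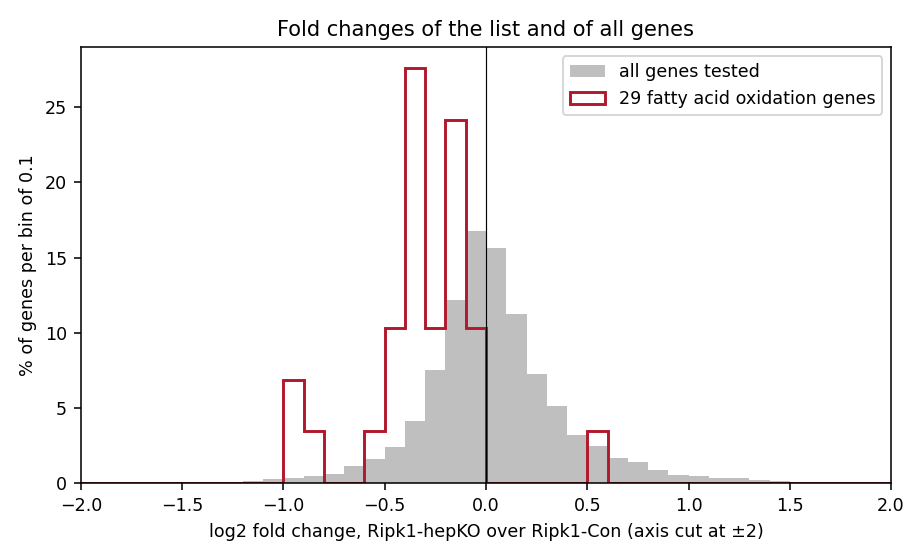
Histogram of log2 fold changes (x axis, bins of 0.1) as a percentage of genes (y axis), in grey for the 15234 genes tested and in red outline for the 29 fatty acid oxidation genes. The grey distribution centres at 0.01, whereas 28 of the 29 outlined genes lie to the left of 0.

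These 29 genes are not independent readings, since the same 4 mice carry each comparison. They were also chosen with earlier results of these data known, so their shares beside those of all genes are description and not a test. Leaving out mouse 34 turned the count of 17 into 9, where 2.19% of all genes tested were lower in the same way. Leaving out mouse 29 gave 9 (1.64% of all genes), and leaving out mouse 32 gave 10 (2.14%).

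Summed over the 29 genes, 0.467% to 0.6001% of all counts were assigned to them in the knockouts and 0.631% to 0.725% in the controls, ranges that did not overlap. Their mean level, as log2(CPM + 1), where CPM are counts scaled to library size with TMM factors, was 7.22, 6.88, 7.32 and 7.04 in Ripk1-hepKO mice 28, 34, 37 and 39. In Ripk1-Con mice 29, 32, 40 and 41 it was 7.67, 7.55, 7.30 and 7.43. On this scale mouse 37, the highest of the Ripk1-hepKO mice, lay just above mouse 40, the lowest control. Mouse 29 held the highest of the 8 values for 22 of the 29 genes, against 11.7% of all genes tested, and lay above the gene's mean in all 29. Mouse 34 held the lowest value for 12, against 9.40% of all genes tested, and lay below the mean in all 29. Mouse 28, which held the lowest value for 26.8% and the highest for 26.3% of all genes tested, was lowest for 8 of the 29 and highest for 2, Pdk4 and Slc22a5. Mouse 37 was below the gene's mean in 11 of the 29, and mouse 40 in 15.

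**Figure D2:**
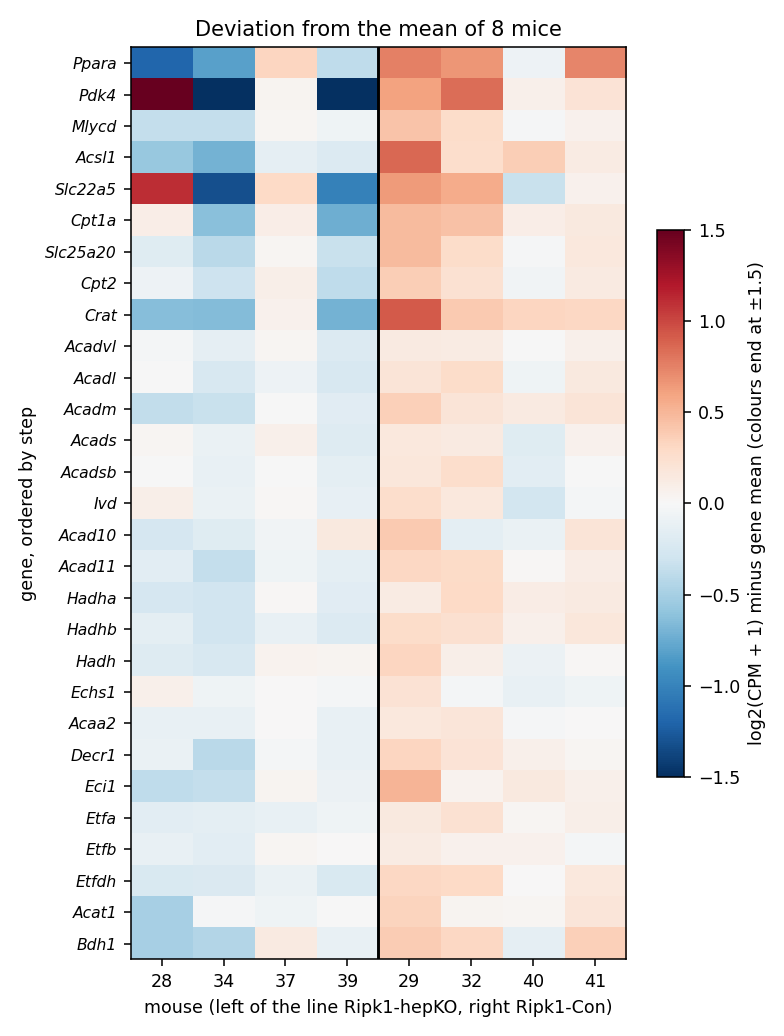
Deviation of each gene (rows, ordered by step) in each mouse (columns, Ripk1-hepKO left of the line) from its mean over 8 mice, as log2(CPM + 1), with colours ending at 1.5 in either direction. Mice 34 and 29 lie below the mean in 29 and 0 of 29 genes, and Pdk4 and Slc22a5 are the genes for which mouse 28 is the highest of 8.

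Total counts ran from 28038390 to 67328158 per library, and each of the 29 genes had at least 290 counts in every library, so counting error is small beside the spread between mice. PCR copies of a molecule may be counted as separate reads, because how the reads were counted is not given in the sources used here. The targeted gene, Ripk1, averaged 32.5 ± 6.63 CPM in knockouts and 37.5 ± 11.2 CPM in controls (SD, n = 4 each), with overlapping groups. It does not check the labels, because deletion of part of a gene need not lower its total count and other liver cells keep the gene. Mitochondrially encoded genes held 8.88% to 10.5% of counts in Ripk1-hepKO and 8.86% to 9.69% in Ripk1-Con.

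Fewer hepatocytes and less RNA per hepatocyte cannot be told apart in bulk liver. Of 15 hepatocyte markers, 14 were tested and 11 lay below 0, at a median of -0.10 (Tf is not analysed here), and their summed level was 107360 to 126830 CPM in Ripk1-hepKO and 121460 to 149880 CPM in Ripk1-Con. Alb was the largest part of each sum, at 48465 to 68917 CPM in Ripk1-hepKO and 74428 to 90592 CPM in Ripk1-Con. As the mean of log2(CPM + 1), the list stood at 11.43 to 11.88 in Ripk1-hepKO and 11.68 to 12.03 in Ripk1-Con, with overlap. Of all genes tested, 48.2% lay below 0. Markers of other cells were mostly above 0. This held for 12 of 12 stellate cell and fibroblast markers (summed level 323 to 479 against 269 to 328 CPM), 11 of 12 monocyte and lipid-associated macrophage markers (45.3 to 125 against 36.1 to 74.1) and 10 of 12 Kupffer cell markers (296 to 455 against 123 to 487). Single mice weighed on these lists, read as the mean of log2(CPM + 1). Stellate markers stood at 4.33, 3.40, 3.41 and 3.72 against 3.48, 3.24, 3.11 and 3.41, with mouse 28 highest. Monocyte markers stood at 2.69, 1.96, 2.17 and 1.81 against 1.84, 2.17, 1.37 and 2.04, again with mouse 28 highest. Kupffer markers stood at 4.82, 4.73, 4.78 and 4.34 against 4.16, 4.98, 3.16 and 4.99, with mouse 40 lowest. Of the 9 neutrophil markers tested, 8 of them above 0, the sum was 364 to 2404 against 242 to 1316 CPM, and Ly6g, Mpo and Camp did not pass the filter. Most of that sum was Lcn2 alone, at 354 to 2374 against 239 to 1283 CPM. S100a9 stood at 3.66 to 22.7 against 1.06 to 13.4 CPM. Of the 11 tested endothelial markers 7 were above 0 (233 to 354 against 180.2 to 312.5 CPM). So were 6 of 7 cholangiocyte markers (25.5 to 74.3 against 26.4 to 50 CPM, with overlap) and 6 of 11 T, NK and B cell markers (6.52 to 10.03 against 5.25 to 10.3). The cholangiocyte list and the monocyte and macrophage list share Spp1, which stood at 12.7 to 53.7 CPM in knockouts and 11.2 to 31.1 CPM in controls. Adipose tissue had 2 of 7 markers tested (18.3 to 120.2 against 19.7 to 64.95 CPM), with Plin1, Lep and Cfd at 0 in every library, and muscle 1 of 7 (0.293 to 0.903 against 0.517 to 1.26), with Ckm and Myh4 at 0. The top of each adipose range was mostly Cidec, at 107.5 CPM in mouse 28 and 51.7 CPM in mouse 40. The part of cell composition in the results below was not tested.

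Promoter sequences are shown for 6 stretches, because most of these genes stood lower together. RefSeq promoter windows on GRCm38.p6, from 250 bases before to 50 after a start site, matched 25 of the 29 genes with 27 windows. Both strands were searched for the element that PPAR-alpha with RXR is known to bind, 2 copies of AGGTCA in the same direction with 1 base between, allowing at most 2 mismatches over both copies. It was found in 3 of the 27 windows, against 3.86% of all 32851 windows, in those of Slc25a20, Echs1 and Etfa. The match in Slc25a20 begins 6 bases after the start site, that in Echs1 83 bases before it and that in Etfa 77 bases before it, the last on the opposite strand. With at most 1 mismatch the element was in 0 of the 27 windows, against 0.554% of all. TCAAGGTCA, which estrogen-related receptors are known to bind and which contains AGGTCA, was in 0 of the 27 windows on either strand, against 0.423% of all. A match describes letters in a window, and elements outside these windows were not searched. The stretches lie outside the annotated gene, read 5′ to 3′ on the strand of the gene, with a match in capitals.

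The first lies between Hadha and Hadhb, the genes of the 2 subunits of the trifunctional protein, which are transcribed away from each other with 85 bases between their annotated starts. The next 4 are Acsl1 and Acadm, low in every Ripk1-hepKO mouse, and Etfa and Echs1, which hold a match and of which Etfa alone had groups that did not overlap. The last is Pdk4, the exception in direction.
Hadha and Hadhb, chr5:30155163-30155247, plus strand (that of Hadhb): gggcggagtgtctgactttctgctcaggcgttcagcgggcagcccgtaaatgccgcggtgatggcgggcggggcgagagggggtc
Acsl1, chr8:46470787-46471036, plus strand: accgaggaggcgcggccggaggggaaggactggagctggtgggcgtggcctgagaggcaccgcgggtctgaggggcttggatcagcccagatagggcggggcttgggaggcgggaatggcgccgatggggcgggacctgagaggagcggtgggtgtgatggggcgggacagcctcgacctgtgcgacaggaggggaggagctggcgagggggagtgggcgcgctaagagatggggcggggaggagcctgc
Acadm, chr3:153944644-153944893, minus strand: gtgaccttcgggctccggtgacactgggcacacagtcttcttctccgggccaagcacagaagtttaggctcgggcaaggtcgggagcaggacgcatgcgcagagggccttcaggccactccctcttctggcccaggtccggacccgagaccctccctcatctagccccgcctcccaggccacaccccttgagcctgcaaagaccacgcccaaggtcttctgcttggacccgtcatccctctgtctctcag
Etfa, chr9:55512244-55512493, minus strand: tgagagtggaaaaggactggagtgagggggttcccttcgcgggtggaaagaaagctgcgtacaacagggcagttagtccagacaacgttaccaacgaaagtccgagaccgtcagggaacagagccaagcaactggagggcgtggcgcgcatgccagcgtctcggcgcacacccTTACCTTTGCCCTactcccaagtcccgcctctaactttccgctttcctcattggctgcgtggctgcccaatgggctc
Echs1, chr7:140116477-140116671, minus strand: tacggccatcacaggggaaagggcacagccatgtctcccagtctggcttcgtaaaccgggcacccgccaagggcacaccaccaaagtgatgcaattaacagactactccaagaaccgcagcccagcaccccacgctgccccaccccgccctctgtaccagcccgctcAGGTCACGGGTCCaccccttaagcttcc
Pdk4, chr6:5496310-5496528, minus strand: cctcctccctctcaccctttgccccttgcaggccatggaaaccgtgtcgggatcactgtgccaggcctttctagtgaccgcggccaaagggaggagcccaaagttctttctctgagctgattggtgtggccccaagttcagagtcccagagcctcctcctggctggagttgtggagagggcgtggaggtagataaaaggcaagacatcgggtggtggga
The windows were rich in CpG, with a median of 17 CpG dinucleotides per 300 bases over the 27 windows and 7 over all windows, and 31.4% of all windows had at least 17. The 29 genes lie on 15 chromosomes with at most 4 on any.

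Of the regulators, Ppara had the lowest log2 fold change of the 29. Ppara (ENSMUSG00000022383, chromosome 15, 85734983 to 85802819 on GRCm38, plus strand) measured 34.9, 45.7, 102 and 62.04 CPM among knockouts, compared with 139, 129, 77.1 and 135 CPM among controls. Mice 28, 34 and 39 lay below every control, mouse 37 overlapped them, and mouse 40 stood far under the other controls. Ppara averaged 61.1 ± 29.2 and 120.0 ± 28.9 CPM (SD, n = 4 each), which in edgeR gave a log2 fold change of -0.97 ± 0.33 (SE) at an adjusted p of 0.742. The level was 50.9% of control (95% interval 30.6% to 84.7%).

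Mlycd, the decarboxylase that removes malonyl-CoA, the inhibitor of carnitine palmitoyltransferase 1, measured 43.8, 43.8, 57.4 and 53.7 CPM among knockouts, compared with 76.4, 68.2, 55.9 and 58.99 CPM among controls. Mouse 37 was above mouse 40 and the rest were separated by group, with a log2 fold change of -0.38 ± 0.14 (SE). Pdk4, a kinase that shuts off pyruvate dehydrogenase and so spares glucose when fat is burnt, was the most variable gene of the list. It measured 417, 8.08, 66.8 and 21.1 CPM among knockouts, compared with 99.3, 117, 68.3 and 75.0 CPM among controls. The Ripk1-hepKO mice span the highest value of all 8, in mouse 28, and the 3 lowest, in mice 34, 39 and 37, while the controls stayed close together. Its log2 fold change of 0.51 ± 0.99 (SE) became -1.49 without mouse 28, so that its direction rests on that mouse.

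Acsl1, the long-chain acyl-CoA synthetase that activates fatty acids, had groups that did not overlap. Acsl1 (ENSMUSG00000018796, chromosome 8, 46471037 to 46536051 on GRCm38, plus strand) measured 286, 259, 387 and 368 CPM among knockouts, compared with 773, 508, 547 and 463 CPM among controls. The highest Ripk1-hepKO mouse, 37, lay under the lowest control, 41. Acsl1 averaged 325 ± 62.01 and 573 ± 138 CPM (SD, n = 4 each), which in edgeR gave a log2 fold change of -0.82 ± 0.20 (SE) at an adjusted p of 0.742. The level was 56.8% of control (95% interval 41.7% to 77.2%).

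Of the 5 genes of the carnitine shuttle, all lay below 0 (48.2% of all genes tested) and 4 were lower at an unadjusted p under 0.05 (2.82% of all genes tested). Crat, which moves short acyl groups between coenzyme A and carnitine, differed most. Crat (ENSMUSG00000026853, chromosome 2, 30400471 to 30415813 on GRCm38, minus strand) measured 47.2, 46.8, 77.6 and 44.7 CPM among knockouts, compared with 141, 97.2, 92.4 and 91.8 CPM among controls. Mice 28, 34 and 39 sat close together, mouse 37 was higher and still under every control. Crat averaged 54.1 ± 15.7 and 105 ± 23.6 CPM (SD, n = 4 each), which in edgeR gave a log2 fold change of -0.96 ± 0.22 (SE) at an adjusted p of 0.742. The level was 51.3% of control (95% interval 36.6% to 71.7%), and DESeq2 called the gene (adjusted p = 0.0343). Exons of Dolpp1 overlap Crat on the opposite strand, and Dolpp1 averaged 5.74 and 7.25 CPM in knockouts and controls, far below Crat.

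Cpt1a, the outer-membrane transferase that controls entry of long chains, measured 503, 303, 502 and 281 CPM among knockouts, compared with 652, 637, 500.1 and 517 CPM among controls (ENSMUSG00000024900, chromosome 19, 3322334 to 3385733 on GRCm38, plus strand). Mice 34 and 39 were low, whereas mice 28 and 37 reached the level of control mouse 40. Cpt1a averaged 398 ± 122 and 577 ± 79.1 CPM (SD, n = 4 each), which in edgeR gave a log2 fold change of -0.54 ± 0.22 (SE) at an adjusted p of 0.742. The level was 68.9% of control (95% interval 49.02% to 96.96%).

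Slc25a20, the carrier that exchanges acylcarnitine for carnitine across the inner membrane, measured 91.6, 78.5, 106 and 82.6 CPM among knockouts, compared with 145, 126, 102 and 116 CPM among controls. Mouse 37 lay above control mouse 40, and all other Ripk1-hepKO mice lay below every control. Its log2 fold change was -0.45 ± 0.14 (SE), and that of Cpt2, which returns the acyl group to coenzyme A in the matrix, was -0.34 ± 0.14. Cpt2 stood at 129, 109.5, 145 and 105 CPM against 176, 160.1, 132 and 150.0 CPM, with mouse 37 again among the controls.

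Slc22a5, the carnitine transporter OCTN2 of the plasma membrane, had widely spread knockouts. It measured 102, 18.3, 58.2 and 22.8 CPM among knockouts, compared with 73.5, 69.7, 36.9 and 49.02 CPM among controls. Mouse 28 was the highest of all 8 and mice 34 and 39 the lowest, the same mice as in Pdk4, and the log2 fold change was -0.18 ± 0.51 (SE), which became -0.79 without mouse 28, 0.10 without mouse 34 and 0.07 without mouse 39. Slc22a21, which shares a stretch of 831 bases at 98.3% identity with Slc22a5, stood at 4.42 CPM in mouse 28 and 0.753 to 2.196 CPM in the others, so reads may be split between them.

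**Figure D3:**
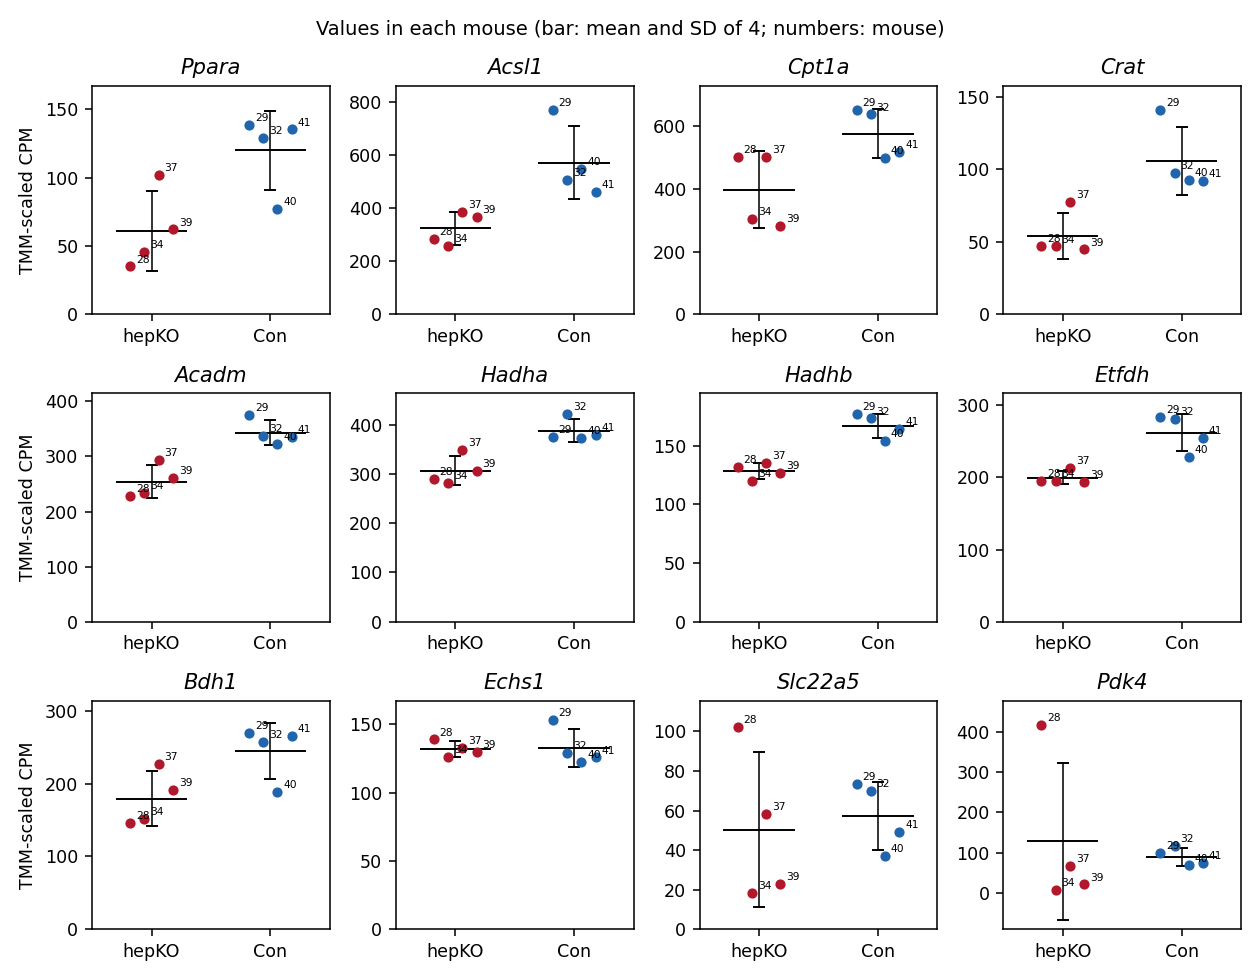
TMM-scaled CPM (y axis) of 12 genes in each of the 4 Ripk1-hepKO (red) and 4 Ripk1-Con (blue) mice, labelled by mouse number, with the group mean and SD as bars. Acsl1, Crat, Acadm, Hadha, Hadhb and Etfdh show no overlap between the groups, mouse 37 lies above control mouse 40 for Ppara, Cpt1a and Bdh1, and Slc22a5 and Pdk4 peak in mouse 28.

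All 8 acyl-CoA dehydrogenases lay below 0, with log2 fold changes from -0.43 to -0.07. Acadm, which acts on medium chains, measured 228, 234, 294 and 261 CPM among knockouts, compared with 376, 338, 323 and 336 CPM among controls (ENSMUSG00000062908, chromosome 3, 153922357 to 153944632 on GRCm38, minus strand). The highest Ripk1-hepKO mouse, 37, was under the lowest control, 40. Acadm averaged 254 ± 29.9 and 343 ± 23.04 CPM (SD, n = 4 each), which in edgeR gave a log2 fold change of -0.43 ± 0.12 (SE) at an adjusted p of 0.742. The level was 74.1% of control (95% interval 61.7% to 88.9%).

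Acad11, a relative that handles hydroxylated acyl chains, measured 349, 305, 372 and 352 CPM among knockouts, compared with 482, 476, 394 and 420.4 CPM among controls, again without overlap. Acad11 had a log2 fold change of -0.36 ± 0.12 (SE). Acadl, for long chains, stood at 219.6, 187, 209 and 187 CPM against 253, 268, 211 and 244 CPM, where only mouse 28 reached above control mouse 40, with a log2 fold change of -0.28 ± 0.11. Acadvl, the membrane-bound enzyme for very long chains, had a log2 fold change of -0.16 ± 0.10 and overlapping groups.

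The other 4 dehydrogenases differed little, and the 95% intervals of their levels included the control level. Acads, for short chains, stood at 97.9 ± 8.36 against 104 ± 11.05 CPM (SD, n = 4 each, here and below Ripk1-hepKO first), or 93.8% of control (95% interval 78.7% to 112%). Acadsb, which also oxidises an intermediate of isoleucine, stood at 71.3 ± 3.70 against 78.8 ± 10.4 CPM, or 90.5% of control (95% interval 75.9% to 108%). Ivd, the isovaleryl-CoA dehydrogenase of leucine breakdown, stood at 116 ± 8.28 against 122 ± 19.6 CPM, or 95.1% of control (95% interval 77.5% to 117%), and its log2 fold change turned to 0.01 without mouse 29. Acad10 stood at 29.5 ± 3.71 against 33.5 ± 6.19 CPM, or 87.97% of control (95% interval 69.6% to 111%), and shares 1614 bases at 95.3% identity with Acad12, which stood at 9.24 against 8.41 CPM. Whether the medium and long chain enzymes differ from these 4 was not tested.

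Both subunits of the trifunctional protein, which carries out the last 3 reactions on long chains, stood lower without overlap. Hadha, the alpha subunit with hydratase and dehydrogenase activity (ENSMUSG00000025745, chromosome 5, 30118304 to 30155162 on GRCm38, minus strand), measured 289.8, 282, 349 and 307 CPM among knockouts, compared with 376, 422, 373 and 379 CPM among controls. Hadhb, the beta subunit with thiolase activity (ENSMUSG00000059447, chromosome 5, 30155248 to 30184593 on GRCm38, plus strand), measured 132, 120.0, 136 and 127 CPM, compared with 177, 173, 154 and 165 CPM. Mouse 34 was the lowest of the 8 and mouse 37 the highest Ripk1-hepKO mouse for both. Hadha averaged 307 ± 29.8 and 387 ± 23.2 CPM (SD, n = 4 each), which in edgeR gave a log2 fold change of -0.34 ± 0.11 (SE) at an adjusted p of 0.742. Hadhb averaged 129 ± 6.75 and 167 ± 10.2 CPM (SD, n = 4 each), which in edgeR gave a log2 fold change of -0.38 ± 0.09 (SE) at an adjusted p of 0.742. The levels were 79.2% of control (95% interval 66.8% to 94.02%) for Hadha and 76.98% of control (95% interval 66.4% to 89.2%) for Hadhb, and DESeq2 called Hadhb (adjusted p = 0.0388). Another gene, Gm13910, shares 1428 bases of Hadhb at 99.8% identity, so the split of reads between them is uncertain. Gm13910 stood at 18.8, 16.3, 19.3 and 18.7 CPM in the Ripk1-hepKO mice and 25.2, 24.9, 21.5 and 22.6 CPM in the controls, likewise without overlap. Hadha and Hadhb themselves lie on either side of the 85 bases printed above.

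The soluble enzymes of the later steps had overlapping groups. Hadh, the hydroxyacyl-CoA dehydrogenase for shorter chains, stood at 245 ± 26.02 against 275 ± 34.6 CPM with a log2 fold change of -0.17 ± 0.13 (SE). Acaa2, the thiolase for shorter chains, stood at 485 ± 20.7 against 543 ± 39.6 CPM with one of -0.16 ± 0.10. Echs1, the short-chain enoyl-CoA hydratase, measured 139, 126, 133 and 129.7 CPM among knockouts, compared with 153, 129, 123 and 126 CPM among controls. The knockouts lay inside the range of the controls, and its level was 99.4% of control (95% interval 84.7% to 117%). The sign of that difference turned with library size alone, with no filter on low counts, and without mouse 29, 34 or 39. Exons of Paox overlap Echs1 on the opposite strand, at 12.3 CPM in knockouts and 14.5 in controls.

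Decr1 and Eci1, which reduce and shift the double bonds of unsaturated fatty acids so that they can enter the cycle, both had groups that did not overlap. Decr1 measured 136, 110.3, 144 and 135 CPM among knockouts, compared with 183, 168, 154 and 149.6 CPM among controls, a log2 fold change of -0.32 ± 0.12 (SE). Eci1 stood at 56.6, 57.4, 76.1 and 69.4 against 106, 76.4, 81.9 and 77.6 CPM, a log2 fold change of -0.40 ± 0.15. For Eci1 mouse 37 came just under control mouse 32, and mouse 29 stood well above all others.

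All 3 electron transfer genes lay below 0. Etfdh, the oxidoreductase that hands electrons to ubiquinone (ENSMUSG00000027809, chromosome 3, 79603788 to 79629500 on GRCm38, minus strand), measured 195, 195, 213 and 194 CPM among knockouts, compared with 284, 281, 228 and 254 CPM among controls. The knockouts sat close together and under all controls. Etfdh averaged 199 ± 9.05 and 262 ± 25.96 CPM (SD, n = 4 each), which in edgeR gave a log2 fold change of -0.39 ± 0.11 (SE) at an adjusted p of 0.742. The level was 76.1% of control (95% interval 64.4% to 89.9%). Etfa, the alpha subunit of the flavoprotein, stood at 162, 164, 168 and 173 against 201, 212, 185 and 193 CPM, also without overlap, with a log2 fold change of -0.24 ± 0.09. Etfb, its partner subunit, stood at 198, 192, 217 and 215 against 232, 223, 224 and 209 CPM, where mice 37 and 39 overlapped control mouse 41, with a log2 fold change of -0.11 ± 0.10.

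Of the 2 ketogenesis genes, Bdh1, which interconverts acetoacetate and 3-hydroxybutyrate (ENSMUSG00000046598, chromosome 16, 31422280 to 31458901 on GRCm38, plus strand), measured 146, 152, 227 and 191 CPM among knockouts, compared with 270.0, 257, 188 and 265 CPM among controls. Mice 37 and 39 overlapped control mouse 40, which stood apart from the other controls. Bdh1 averaged 179 ± 37.8 and 245 ± 38.2 CPM (SD, n = 4 each), which in edgeR gave a log2 fold change of -0.45 ± 0.18 (SE) at an adjusted p of 0.742. The level was 73.1% of control (95% interval 55.5% to 96.2%). Acat1, the thiolase that condenses acetyl-CoA to acetoacetyl-CoA, stood at 238, 335, 324 and 337 against 426, 348, 346 and 383 CPM. Its groups did not overlap, with mouse 39 just under control mouse 40, and mouse 28 lay far under the rest. The log2 fold change was -0.28 ± 0.14 (SE), and the 95% interval of the level, 65.9% to 102% of control, included the control level.

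**Figure D4:**
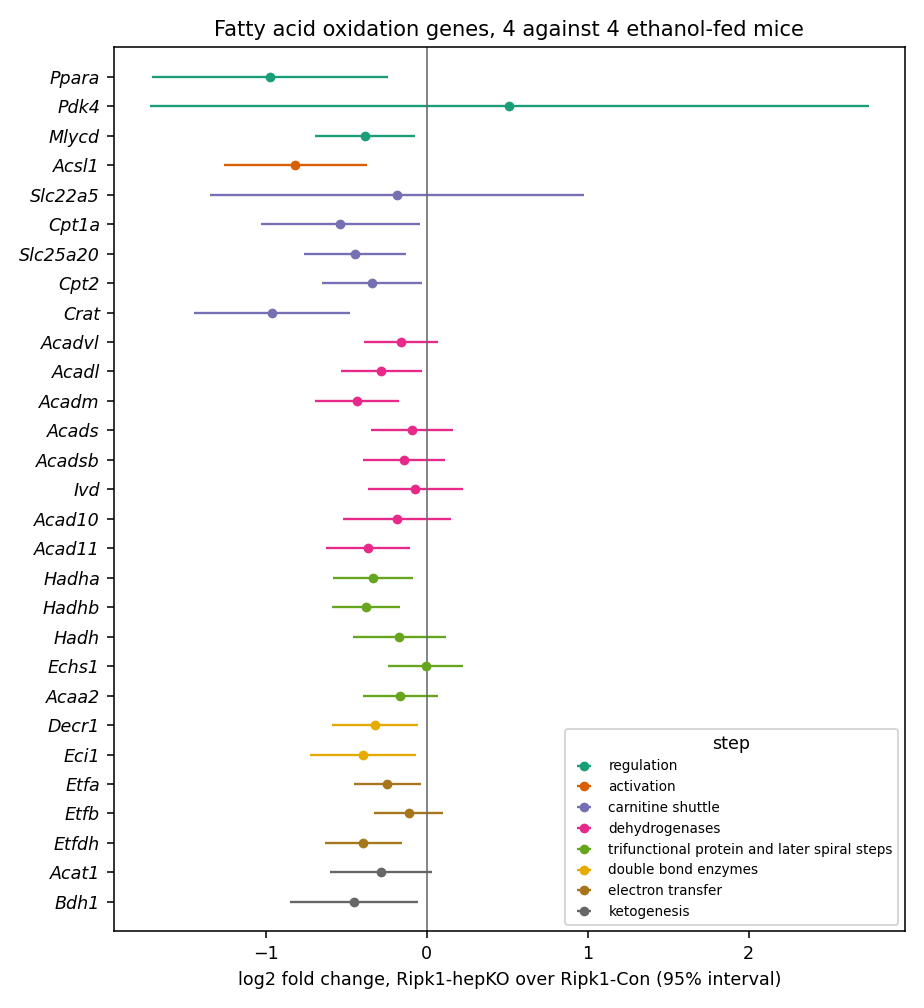
Log2 fold change of each gene (x axis, point) with its 95% interval (bar), grouped by step from regulation at the top to ketogenesis at the bottom. The interval lies wholly below 0 for 17 of 29 genes, is widest for Pdk4 and Slc22a5, and Ppara, Crat and Acsl1 are the 3 lowest points.

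Levels of different genes can be compared only per length, here as CPM per kilobase of merged exons. Acaa2 was the highest in both groups, at 358 ± 26.1 CPM per kb in Ripk1-Con, followed by Etfb at 191 ± 8.25, Acadvl at 140.1 ± 6.17 and Acadl at 122 ± 11.98 (SD, n = 4). Their controls did not overlap from Acaa2 to Etfb to Acadvl. Hadha stood at 44.4 ± 2.65 and Hadhb at 25.3 ± 1.55, Ppara at 31.3 ± 7.53, Crat at 19.6 ± 4.38, and Acad10 was lowest at 5.52 ± 1.02. With the longest transcript in place of merged exons the ranks of 22 of the 29 genes moved, while Acaa2, Etfb and Acadvl kept ranks 1 to 3 and Acad10 rank 29.

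**Figure D5:**
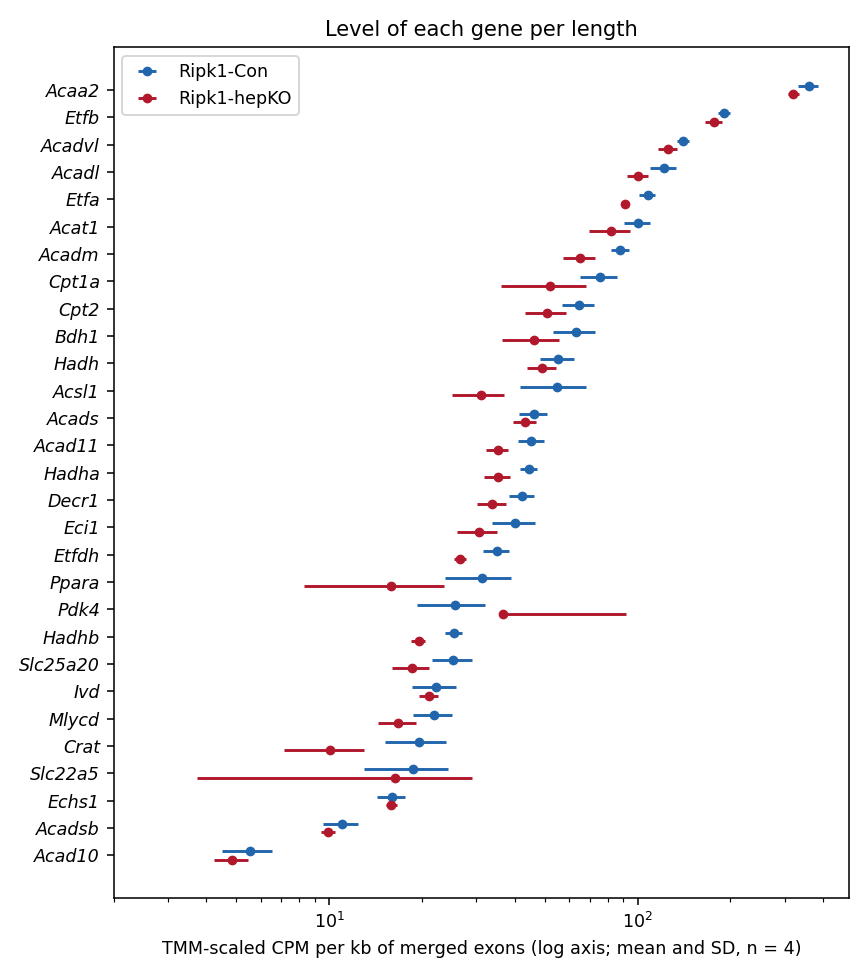
Level of each gene as TMM-scaled CPM per kb of merged exons (log x axis, mean and SD, n = 4) in Ripk1-Con (blue) and Ripk1-hepKO (red), ordered by the control level, with the lower SD bar of Pdk4 in Ripk1-hepKO left out because it passes 0. The red point lies left of the blue one in every gene except Pdk4, and the order runs from Acaa2 down to Acad10.

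Other genes of the pathway, from a list of 25 not used above, were measured in the same fit. Of 24 tested, 0 passed in either direction, 16 lay below 0 and the median log2 fold change was -0.06, against 0.01 over all genes tested. At an unadjusted p under 0.05, 2 were lower and 0 higher, against 2.82% and 3.86% of all genes tested. Acsm3, an acyl-CoA synthetase for medium chains, stood at 65.5, 88.99, 105 and 90.3 against 117, 131, 102 and 130.1 CPM, where mouse 37 overlapped control mouse 40. Slc25a32, the mitochondrial folate and FAD carrier, had a log2 fold change of -0.33 ± 0.15 (SE).

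Genes that feed or brake the pathway did not share one direction. Of 22 partners and coregulators of PPAR-alpha, all tested, 0 passed, 13 lay below 0 and the median was -0.05. Ppard, the related receptor PPAR-delta, stood higher in every Ripk1-hepKO mouse, with mouse 39 barely above control mouse 32, at 9.20, 8.70, 6.94 and 6.32 against 4.82, 6.30, 4.75 and 5.56 CPM, with 0.54 ± 0.17 (SE) as its log2 fold change and an edgeR adjusted p of 0.742. Ncor1, a corepressor, had a log2 fold change of -0.20 ± 0.09 (SE) and Pparg one of 0.36 ± 0.17. Of 12 genes of fatty acid uptake and binding, 0 passed, 8 lay below 0 and the median was -0.10. Fabp1, the liver fatty acid-binding protein, stood at 1311, 896, 1212 and 1455 CPM against 1830.3, 1689, 1578 and 1486 CPM, and Fabp2, its intestinal relative, at 45.2, 54.5, 53.4 and 47.6 against 79.1, 70.7, 57.3 and 78.7 CPM, both without overlap. Slc27a4, a fatty acid transport protein, was above every control at 34.5, 34.6, 37.3 and 31.8 against 30.1, 27.8, 31.6 and 29.9 CPM. Of the 8 genes of malonyl-CoA synthesis and disposal, 0 passed, 4 lay below 0 and the median was 0.04, with Acacb, whose product inhibits entry of long chains, at a log2 fold change of -0.11 ± 0.19 (SE), Prkaa2 at 0.16 ± 0.18 and Acsf3 at -0.06 ± 0.11.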

How the data were processed

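Whole-number counts per Ensembl gene, not normalized, were deposited by the authors as 1 table for 8 liver libraries. Per the submitters' processing notes, the build was GRCm38.p6 and the tools included STAR 2.5.2b and StringTie 2.2.1, whose roles are not stated, beside FastQC 0.11.5 and DESeq2 1.38.1. The counting tool, annotation release and strand setting are not given in the sources used here. Genes with near-identical copies or exons that overlap another gene are therefore uncertain. Of the 29 genes, 20 have no exon overlap and 13 share a near-identical stretch with another gene. For Acsl1, Acad11, Acadvl, Etfb, Etfdh and Bdh1 that other gene is one whose exons overlap theirs. There the stretch can be the shared bases of one locus and not a copy elsewhere. Libraries were poly(A)-selected and strand-marked with dUTP, per the labels' protocols.

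Genes were filtered with filterByExpr, scaled by TMM and tested for genotype with the robust quasi-likelihood test of edgeR 4.0.16 in R 4.3.3, with Benjamini-Hochberg adjustment over 15234 genes at 0.05. Symbols and positions came from GENCODE M21 (55154 IDs matched, 181 did not). The SE comes from the quasi-likelihood F, and intervals are 95%. Near-identical copies are stretches of at least 200 bases at 95% identity shared with another gene in BLAST 2.17.0, genes with overlapping exons included. Promoters are RefSeq windows on GRCm38.p6. The test was also run on simulated counts, drawn separately for each gene and so without shifts that genes share within a mouse. That run therefore does not show how the test behaves on these data. Alternatives were other scalings, filters and tests (DESeq2 1.42.0, limma 3.58.1 with voom) and mice left out.

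The genes and lists were chosen with earlier results of these data known. Values of every mouse were to be printed for the 10 genes of smallest p and for 1 gene of each step, with up to 3 genes of smallest p from each of 6 pathway lists, and 10 marker lists were used. The values of 1 gene that this rule names are not reported here. Other values of single mice, and the copies and overlapping genes named, were picked after their values were seen.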

Additional observations from a re-analysis of the deposited data

Results flagged for a closer look

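Within a group of 4 mice, the highest or lowest value stood far from the other 3 (Dixon's test at 95%) in 9 of 58 gene and group pairs, or 15.5%, against 7.14% of such pairs over all genes tested. Chance flags about 1 in 20. Since the genes share mice, the 9 are not independent.

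Mouse 40 was the low control for Ppara, at 77.1 CPM against 129 to 139 in the other controls, and for Bdh1, at 188 CPM against 257 to 270.0. Among the Ripk1-hepKO mice, mouse 37 was the high one for Crat, at 77.6 CPM against 44.7 to 47.2, for Acaa2, at 516 CPM against 473 to 476, and for Etfdh, at 213 CPM against 194 to 195. Mouse 28 was apart in both directions, with Pdk4 at 417 CPM against 8.08 to 66.8 in the other Ripk1-hepKO mice and Acat1 at 238 CPM against 324 to 337. The remaining flags are high controls: Crat in mouse 29, at 140.7 CPM against 91.8 to 97.2, and Hadha in mouse 32, at 422 CPM against 373 to 379.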

How the results depend on the processing

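No paired analysis was run, because the sample labels name nothing that pairs mice across the genotypes. Under 18 alternatives 25 of the 29 genes kept their sign, and of 522 gene values 508 kept both sign and side of the threshold, 12 changed sign and 2 came to pass it. The 2 were Crat and Hadhb with the DESeq2 Wald test, which called 36 genes in all (14 higher, 22 lower) and 2 of the 29. The other 17 alternatives called 0 genes, while 633 to 1409 genes had an unadjusted p under 0.05 with 1 mouse left out. The median over the 29 genes was -0.36 to -0.26 with 1 mouse left out, the number below 0 was 26 to 29, and the number lower at an unadjusted p under 0.05 was 9 to 17.

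Sign changes were limited to Pdk4, Slc22a5, Echs1 and Ivd. Pdk4 was -0.89 with limma voom, -1.86 with sample quality weights, -1.60 without mice 28 and 40, and -1.49 to 0.91 with 1 mouse left out. Echs1 was 0.0256 with library size alone, 0.00639 with no filter, and -0.0353 to 0.0682 with 1 mouse left out. Over the same fits Slc22a5 was -0.79 to 0.10 and Ivd -0.156 to 0.0105. The cause was not tested for any of them, and for each marker list the difference between the groups moved by less than its spread with pseudocounts of 0.25 or 5, while the levels themselves shift with the pseudocount. The lowest count of any of the 29 genes in a library was 290, and what depth or group size contributes was not tested.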

Other observations

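Oxidation of branched-chain amino acids and lysine also feeds electrons to the flavoprotein or ends in acyl-CoA. Of 19 listed genes, 18 were tested, 0 passed, 16 lay below 0 and the median log2 fold change was -0.10. The list also holds Dmgdh and Sardh, the dehydrogenases of dimethylglycine and sarcosine, which belong to neither route and both lay below 0. Bckdhb, a subunit of the branched-chain ketoacid dehydrogenase, was 1 of the 2 above 0, at 103, 81.6, 85.02 and 73.9 CPM in the Ripk1-hepKO mice and 72.4, 74.0, 61.7 and 59.9 CPM in the controls, where only mouse 39 overlapped the controls. Aldh6a1, of valine breakdown, stood at 259, 308, 347 and 289 against 379.9, 389, 319.8 and 379.7 CPM and Dbt, another subunit of the dehydrogenase, at 58.4, 44.8, 47.9 and 56.6 against 61.6, 61.8, 60.3 and 55.9 CPM.

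The pyruvate dehydrogenase complex and its regulators, apart from Pdk4, had 7 of 11 tested genes below 0, 0 past the threshold and a median log2 fold change of -0.06. Mpc2, a subunit of the mitochondrial pyruvate carrier, stood at 68.7, 59.9, 68.9 and 73.4 CPM in the Ripk1-hepKO mice and 90.6, 85.6, 76.3 and 75.9 CPM in the controls, without overlap (log2 fold change -0.28 ± 0.10 SE; edgeR adjusted p = 0.742). Pdk3 and Pdp1, a kinase and a phosphatase of the complex, had log2 fold changes of 0.42 ± 0.29 and 0.57 ± 0.45 (SE), with overlapping groups.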
